A study of Argiope bruennichi with 12 samples.

Results

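The genes described here had higher counts in spiderlings of a warm winter regime, and in 1 pool of a moderate regime, than in all other pools. A gene was taken if its mean over all 12 pools was at least 2 CPM (the count of a gene scaled to a total of 1000000 counts per pool) and if its lowest warm pool lay above the highest of 7 other pools. These were the 4 cold pools and moderate replicates 1 to 3. Moderate replicate 4 had to reach at least the lowest warm pool, and the mean of these 5 pools had to be at least 1.5 times the mean of the other 7. Of 37459 genes in the table, 12442 had a mean of at least 2 CPM and 431 met all conditions. The 200 with the largest ratio of means were kept, and 231 were left out by that limit. The genes were thus selected on their measured CPM in all 12 pools, and their levels in warm against the other pools, with any count of calls in those contrasts, are a description and not a test of the genes.

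The spiderlings belonged to Argiope bruennichi, an orb-weaving spider whose first instar passes the winter inside the silken egg sac. Egg sacs of mated females were held for 3 months in climate cabinets under a cold regime (day 5°C, night -15°C), a moderate regime (day 5°C, night -5°C) or a warm regime (day 15°C, night -5°C), and were sprayed daily. RNA was then taken from 4 pools of 15 whole spiderlings per regime and depleted of ribosomal RNA. Each regime had its own cabinet, and the cold cabinet was of another model than the other two, so that cabinet and regime cannot be told apart. Which egg sacs and mothers went into which pool, and the sex of the spiderlings, were not given in the labels, so p-values measure the spread between these pools only.

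Spiders cannot warm their own bodies, and an overwintering instar lives on the yolk and fat it hatched with. Higher temperature generally speeds the use of such reserves. In the study 3 of the genes carry a name. They are a diacylglycerol kinase, which phosphorylates diacylglycerol to phosphatidic acid and so links membrane lipids with signalling, an adenylosuccinate synthetase, which takes part in the synthesis of AMP, and a low-density lipoprotein receptor, the family that takes lipoproteins up into cells. For the other 197 genes, the table and the annotation used here gave identifiers but no product, so that no function is stated for them. For the same reason, markers of muscle, silk gland, midgut or other tissues were not checked, and in whole spiderlings fewer cells of a type and less RNA per cell cannot be told apart.

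Total counts lay between 10800714 in moderate replicate 2 and 16081111 in cold replicate 1. Moderate replicate 4 was nearer to the warm pools than to its own regime also over the 12011 expressed genes that did not meet the conditions. Its mean Euclidean distance in log2(CPM + 0.5) was 42.3 to the warm pools, 52.9 to the cold pools and 70.9 to the other moderate pools. Moderate replicates 1, 2 and 3 were nearer to cold than to warm, with distances of 61.3, 90.3 and 66.5 to warm against 46.6, 77.8 and 50.9 to cold. Whether moderate replicate 4 was mislabelled cannot be settled from the labels, and it is kept in its labelled group, with values given also without it. The moderate pools did not form a close group, with mean distances to the other moderate pools of 55.2, 76.1 and 59.3 for replicates 1, 2 and 3. Moderate replicate 2 lay far from every regime, and farther from its own than moderate replicate 4 did. Moderate replicates 1 and 3 were on average nearer to cold than to the other moderate pools. Yet they were nearest to each other, at a distance of 38.8, against 43.7 and 47.8 to their nearest cold pools. The gene of heat shock protein 70 B2, a chaperone made under heat and other stress, was also low in moderate replicate 4, at 17.2 CPM against 253 to 508 in the other moderate pools, 67.3 to 216 in cold and 22 to 57 in warm. Its part in the results below was not tested.

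Together the 200 genes held about the same small share of all counts in the warm pools and in moderate replicate 4. The share was 1.15%, 1.18%, 1.15% and 1.17% in warm replicates 1 to 4 and 1.2% in moderate replicate 4. In cold replicates 1 to 4 it was 0.591%, 0.619%, 0.58% and 0.6%, and in moderate replicates 1 to 3 it was 0.566%, 0.503% and 0.544%. The rule separates these pools gene by gene, and these sums are computed from the values it used.

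**Figure D1:**
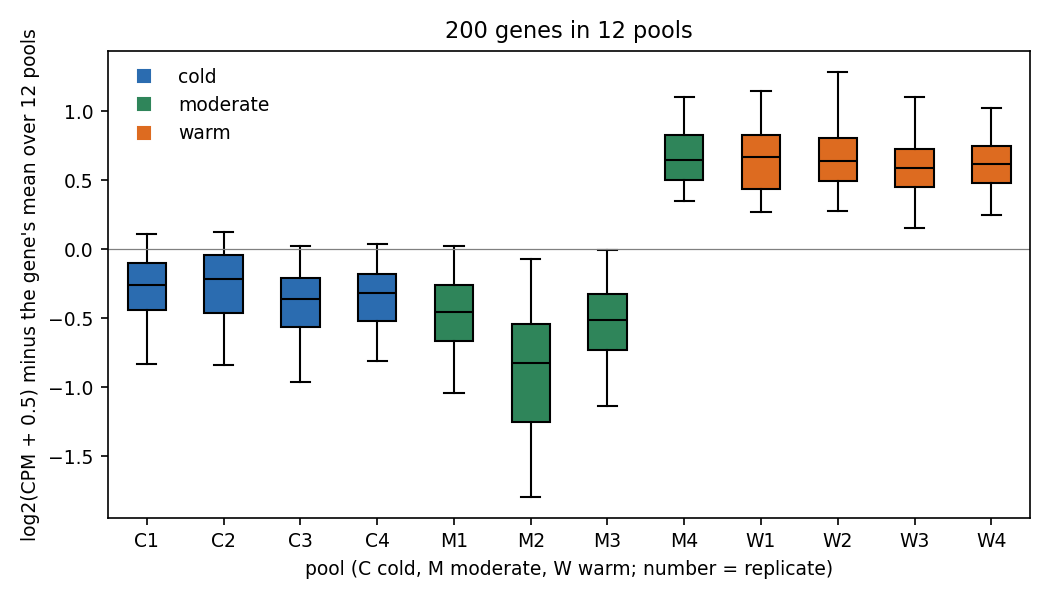
Level of the 200 genes in each of the 12 pools, as log2(CPM + 0.5) minus the mean of each gene over all pools. Boxes show the quartiles and median over genes and whiskers the 5th to 95th percentiles. The 4 warm pools and moderate replicate 4 sit above 0 and the other 7 pools below it, with moderate replicate 2 lowest.

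The ratio of means ran from 1.80 to 5.69 with a median of 2.10, and it was at least 2 in 127 genes, at least 3 in 18 and at least 4 in 7. The groups were closer than the ratio of means conveys, since the lowest warm pool was a median of 1.33 times the highest of the 7 low pools and at least 1.5 times in only 49 genes. Mean levels spanned 2.10 to 579 CPM with a median of 11.7. Low levels were common, with 87 genes under 10 CPM and 16 over 100 CPM, but 0 genes had a count of 0 in any pool and the lowest count in a warm pool or moderate replicate 4 was 31. Counts could be far lower in the 7 low pools, on which the ratio also rests. LOC129966678, among the genes with the largest ratios, had 0.354 and 0.278 CPM in moderate replicates 1 and 2. At the limit of 200, the last genes kept were LOC129965649, LOC129959982 and LOC129957838, with ratios of 1.8043, 1.8031 and 1.8025. The first genes left out were LOC129976621, LOC129960507 and LOC129985229, with ratios of 1.8000, 1.7986 and 1.7986, so that no step in the values marks the edge of the set.

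By gene type, 187 of the genes were protein-coding, 12 were long non-coding RNAs and 1 was a small nucleolar RNA. Long non-coding RNAs made up 6% of the 200 genes and 3.19% of the 12442 expressed genes. The spans of the genes in assembly qqArgBrue1.1 ran from 211 to 618611 bases with a median of 32730, against a median of 23625 for the expressed genes. The spans of 18 genes overlapped that of another annotated gene. The strand setting of the counting, and its handling of reads with more than 1 match, are not given in the sources used here, so counts of these genes, and of genes with near-identical copies, are uncertain.

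Among the named genes, diacylglycerol kinase 1 (LOC129984733, chromosome 9, 15025069 to 15643679) had moderate replicates 1 to 3 between the cold and the warm pools. It stood at 37.7, 38.7, 39.8 and 40.4 CPM in cold, at 56, 58.1, 42.3 and 80.8 CPM in moderate and at 79.6, 87.6, 83.6 and 90.6 CPM in warm. Moderate replicate 4 fell among the warm pools, and no other moderate pool overlapped either regime. The fitted log2 fold change of warm over cold was 1.13 (SE 0.17).

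Adenylosuccinate synthetase (LOC129983880, chromosome 9, 2297594 to 2313840) had overlapping levels in cold and in moderate replicates 1 to 3. Its CPM was 281, 280, 320 and 262 in cold, 262, 282, 271 and 519 in moderate and 552, 514, 445 and 499 in warm. Moderate replicate 4 was thus higher than 3 of the warm pools, and the log2 fold change of warm over cold was 0.82 (SE 0.19). The low-density lipoprotein receptor (LOC129957447, chromosome 2, 5537134 to 5791238) varied far more between warm pools, with 38.9, 28.4, 26.7 and 18.4 CPM. It had 14.1, 14.5, 11.1 and 9.99 CPM in cold and 15.9, 14.4, 16.7 and 20.6 CPM in moderate, so that warm replicate 4 and moderate replicate 4 lay only just above the highest of the other pools. Its log2 fold change of warm over cold was 1.19 (SE 0.20).

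The study named 24 genes in all, of which 21 did not meet the conditions. Acetoacetyl-CoA synthetase (LOC129964270), which activates the ketone body acetoacetate for lipid synthesis, had a ratio of 4.82 but was left out because moderate replicate 4 did not reach the warm level. Moderate replicate 4 had 38.4 CPM, against 71.1 to 120 in warm, 13.7 to 39.7 in cold and 2.48 to 5.81 in the other moderate pools. Fatty acid amide hydrolase 2 (LOC129976441), which splits fatty acid amides, was likewise at 3.97 CPM in moderate replicate 4 against 11.5 to 14.2 in warm. The pool therefore did not carry every gene that was high in warm.

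The largest ratio belonged to LOC129984940, a protein-coding gene with a span of 519 bases on chromosome 9 (50094347 to 50094865). Its CPM was 5.04, 3.56, 3.65 and 4.77 in cold, 4.82, 2.69, 2.71 and 20.3 in moderate and 19.9, 29.8, 21.0 and 19.7 in warm. Warm replicate 2 stood above the other warm pools, and the gap from the 7 low pools to the 5 high pools was wide. The log2 fold change of warm over cold was 2.41 (SE 0.52).

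LOC129963840 (chromosome 3, 9028599 to 9039940) had the largest fitted change of warm over cold of all 200 genes, with a log2 fold change of 2.75 (SE 0.44). Its CPM was 4.66, 5.64, 3.06 and 2.13 in cold, 4.11, 6.11, 7.67 and 18.5 in moderate and 31.9, 30.1, 27.1 and 14.4 in warm. Warm replicate 4 was at less than the level of moderate replicate 4, while the other warm pools were well above it. LOC129961988 (chromosome 2, 113132867 to 113235605), with a ratio of 4.81, was at 5.51 to 9.58 CPM in cold, 4.44 to 5.94 in moderate replicates 1 to 3, 40 in moderate replicate 4 and 21.8 to 43.3 in warm.

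The other genes with a ratio of about 4 or more were all low, with 12-pool means between 2.17 and 6.89 CPM. These were LOC129960657 and LOC129960340 on X2, LOC129961620 on chromosome 2, LOC129989088 on chromosome 10 and LOC129966678 on chromosome 4, with ratios of 4.54, 4.03, 4.34, 4.16 and 4.00. The ratios of LOC129957497, LOC129965985, LOC129981570 and LOC129957494 were between 3.30 and 3.31. In LOC129965985 (chromosome 4, 56392287 to 56425272) the ratio rested on moderate replicate 4 at 18.2 CPM and warm replicate 4 at 15.9 CPM, since the other warm pools had only 5.26, 4.69 and 5.09 CPM against 3.86 CPM in the highest cold pool.

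The genes with the highest counts showed smaller and more even steps. LOC129980828 (chromosome 8, 10995594 to 11034595) had 429, 448, 418 and 447 CPM in cold, 395, 376, 404 and 878 CPM in moderate and 767, 760, 834 and 791 CPM in warm. Moderate replicate 4 was above every warm pool, and the log2 fold change of warm over cold was 0.87 (SE 0.22). LOC129958804 on X1 (53346319 to 53616227) had 284 to 394 CPM in cold, 277 to 367 in moderate replicates 1 to 3, 661 in moderate replicate 4 and 649 to 781 in warm. LOC129958474 on X1, LOC129978751 on chromosome 1 and LOC129959629 on X2 had warm means of 668 ± 59.9, 447 ± 35.4 and 417 ± 27.1 CPM (SD, n = 4) against cold means of 338 ± 35.7, 265 ± 20.1 and 193 ± 30.5 CPM (SD, n = 4).

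Of the long non-coding RNAs, LOC129975213 on chromosome 7 had the highest mean level, with 56.2, 55.8, 52.4 and 54.1 CPM in cold, 51.2, 34.9, 49.4 and 99.1 CPM in moderate and 83.3, 93.8, 112 and 138 CPM in warm. LOC129960154 on X2 (76315884 to 76336856) spread widely in cold, from 13.9 to 34.3 CPM, and reached 45.5 to 64.1 CPM in warm and 68.3 CPM in moderate replicate 4. LOC129960187, also on X2, had 20.7 to 24.6 CPM in cold, 14.4 to 15.6 in moderate replicates 1 to 3, 42.4 in moderate replicate 4 and 35.1 to 43.9 in warm. Of the 12 long non-coding RNAs, 7 lay on X1 or X2. The share of all expressed long non-coding RNAs on these chromosomes is not given here, so nothing is read from this count. The small nucleolar RNA LOC129957838 on chromosome 11, of a class that guides the modification of ribosomal and other RNAs, had 153 to 238 CPM in cold, 168 to 235 in moderate replicates 1 to 3, 344 in moderate replicate 4 and 316 to 437 in warm.

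**Figure D2:**
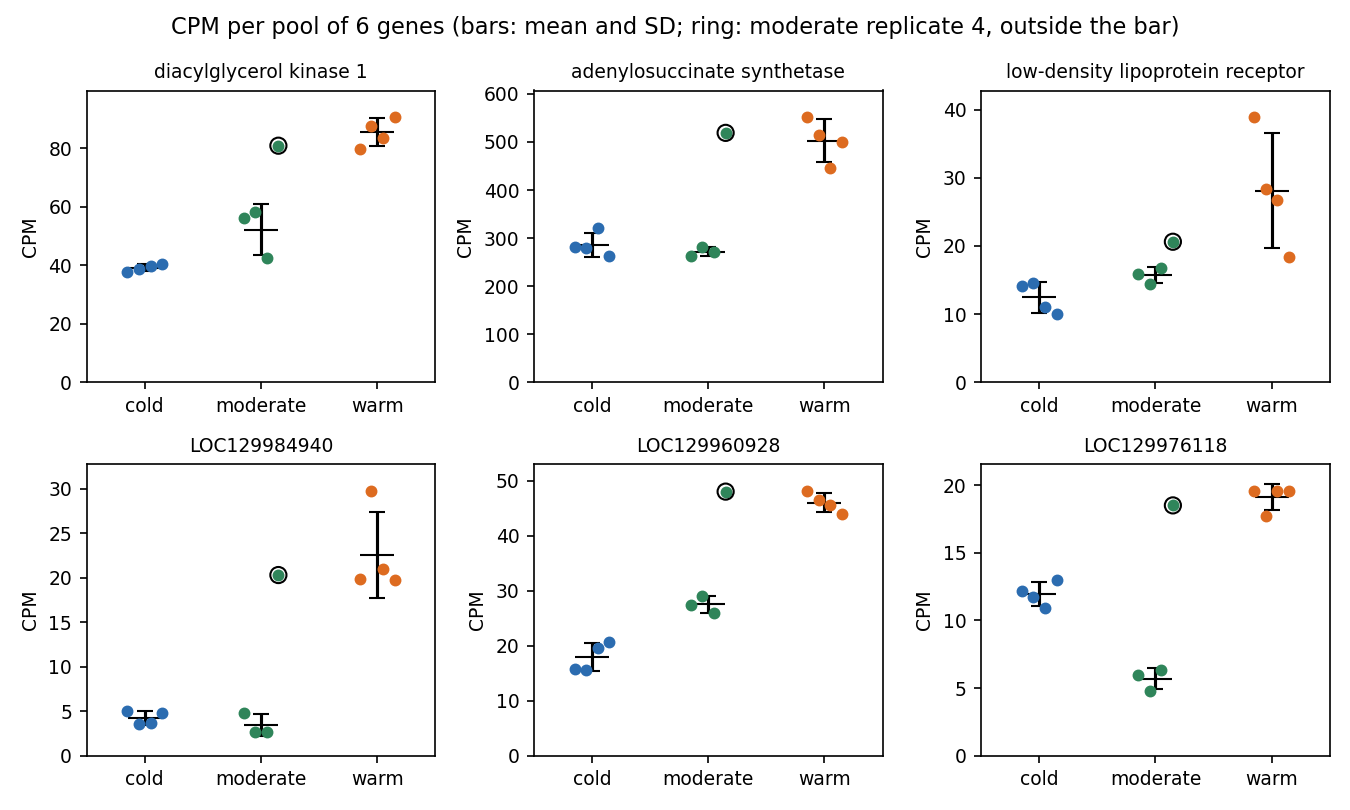
CPM of 6 of the genes in each pool, with 1 panel per gene and the regimes on the horizontal axis. Points are pools, and horizontal marks and error bars are the mean and SD of the 4 cold pools, moderate replicates 1 to 3 and the 4 warm pools. The ring marks moderate replicate 4, which lies within the range of the warm pools in each panel and in some near the lowest of them.

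Moderate replicate 4 was not held to an upper limit by the rule, and it was above the highest warm pool in 42 of the 200 genes. Its level over the mean of the warm pools ran from 0.611 to 2.35 with a median of 1.01. Measured against the highest warm pool, it lay farthest above warm in LOC129966028 on chromosome 4, with 281 CPM against 144 to 171 in warm, and next in LOC129981570 on chromosome 8, with 5.99 CPM against 2.31 to 3.74. Over the mean of the warm pools LOC129965985 was highest, at 2.35. LOC129966028 also varied in the low pools, between 62 and 140 CPM.

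Warm pools agreed closely in some genes and not in others, with coefficients of variation from 1.52% to 70.5% and a median of 15.0%. The median over the genes was 15.1% in cold and 25.5% in moderate replicates 1 to 3. LOC129958858 on X1 had the lowest value, with 30.3, 29.6, 29.2 and 29.7 CPM in warm and 33 CPM in moderate replicate 4, against 11.3 to 14.2 CPM in the other pools. LOC129960723 on X2 was next at 1.78%, with 13.1 to 13.6 CPM in warm. After LOC129965985, LOC129961947 on chromosome 2 varied most, with 43.6, 153, 38.7 and 67.8 CPM in warm, and its highest cold pool, at 37.4 CPM, was close below the lowest of them.

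In the quasi-likelihood F test of edgeR (adjusted after Benjamini and Hochberg), fitted over 14057 genes and all 12 pools, 67 of the 200 genes were called higher in warm than in cold. Over all genes tested, 2.7% were called higher in warm, but the rule used this contrast and nothing is read from the difference. The median log2 fold change was 0.98 (range 0.60 to 2.75), and over all genes tested it was -0.01. In warm against moderate, 7 were called higher in warm, where 1.37% of all genes were, and the median log2 fold change was 0.80 (range 0.17 to 1.58). Moderate replicate 4 is part of the moderate group in that fit. Without it, edgeR called 184 of the 200 genes higher in warm than in cold (7.88% of all genes) and 195 higher in warm than in moderate (14.5% of all genes), with median log2 fold changes of 0.98 and 1.21. The rule placed every warm pool above all of these other pools in each gene, so the direction was fixed by the choice of genes and nothing is read from these counts.

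The rule set no order between the 4 cold pools and moderate replicates 1 to 3, and in these 7 pools the genes were more often higher in cold. The CPM of these 7 pools had still entered the rule, through their highest value and their mean. The counts and p-values of this contrast therefore describe genes selected on the same values, set beside genes that were not selected. With moderate replicate 4 left out, the log2 fold change of cold over moderate was above 0 in 152 of the 200 genes, or 76%, and in 50.9% of all 14181 genes tested. The median was 0.29 (range -0.76 to 1.53) against 0.01 over all genes. By the same edgeR test, adjusted over all genes, 10 of the 200 genes were higher in cold and 1 was lower, that is 5.5% of them. Over all genes 1.54% were called higher in cold, 3.04% lower and 4.58% in either direction, so that the total was near the background. The direction of these few calls was mostly the opposite one, but their number depended on single pools, as given below, and nothing is read from the split. At an unadjusted p under 0.05, 56 were higher in cold and 8 lower, where 10.1% and 12.3% of all genes were.

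**Figure D3:**
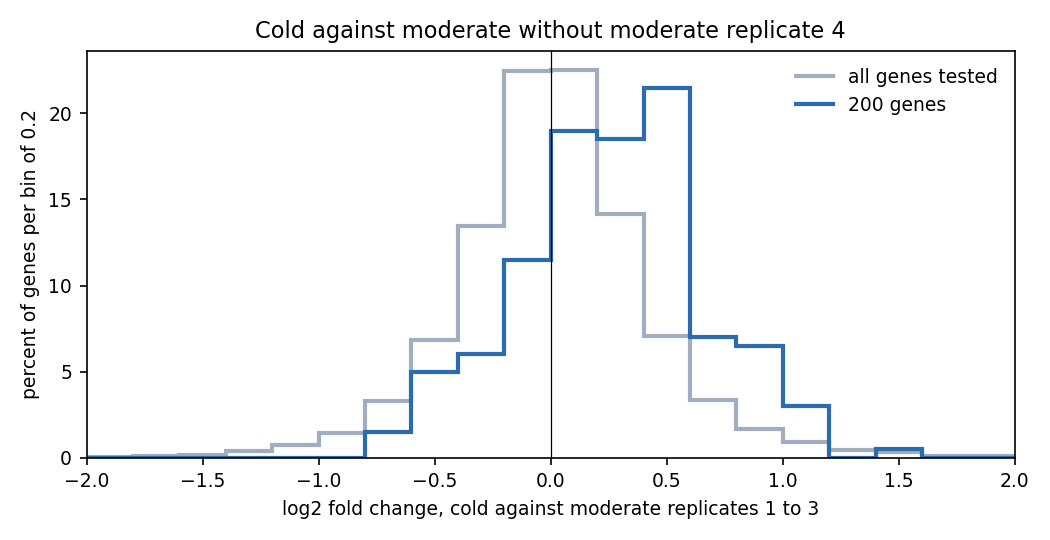
Distribution of the log2 fold change of cold over moderate replicates 1 to 3, as the percent of genes in bins of 0.2, for the 200 genes and for all 14181 genes tested. The median of the 200 genes was 0.29 and that of all genes 0.01.

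Moderate replicate 2, the pool with the lowest total count, was the lowest of the 7 pools in 109 of the 200 genes. Moderate replicate 3 was lowest in 34 and each of the others in 9 to 14. The highest of the 7 was cold replicate 2 in 64 genes, cold replicate 1 in 37 and moderate replicate 2 in 8. How often each pool was lowest or highest over all expressed genes is not given here. These counts are therefore not read as a trait of the 200 genes. With moderate replicate 2 left out as well, 147 of the 200 genes had a fold change above 0, and edgeR again called 11. The number called depended more on the cold pools, and was 2 without cold replicate 1, 2 without cold replicate 2 and 4 without cold replicate 4. Calls over all genes are not given for these fits, so the counts do not describe these genes apart from others.

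The largest of the called differences was in LOC129975827 on chromosome 7 (78832862 to 78886160), with 24.6, 22.9, 21 and 20.3 CPM in cold and 14.6, 4.72 and 10.8 CPM in moderate replicates 1 to 3. The cold pools did not overlap the 3 moderate pools, and the log2 fold change was 1.11 (SE 0.24, edgeR adjusted p = 0.024). Moderate replicate 4 had 44.4 CPM and the warm pools 37.3 to 40.4 CPM. LOC129976118 on chromosome 7 (64726038 to 64746871) had the smallest adjusted p, with 12.2, 11.7, 10.9 and 13 CPM in cold and 5.95, 4.81 and 6.31 CPM in moderate replicates 1 to 3. Its log2 fold change was 1.03 (SE 0.14, edgeR adjusted p = 0.00586).

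LOC129960247 on X2 (107888872 to 107931514) was also higher in cold, with 12.4, 13.9, 7.83 and 10.8 CPM against 5.81, 4.35 and 6.09 CPM. The log2 fold change was 1.01 (SE 0.23, edgeR adjusted p = 0.0315). The other 7 genes higher in cold had log2 fold changes from 0.54 to 0.98, among them the long non-coding RNA LOC129960187 at 0.54 (SE 0.12, edgeR adjusted p = 0.0273). With warm placed highest by the rule, moderate replicates 1 to 3 thus had the lowest mean in these genes.

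The 1 gene lower in cold was LOC129960928 on X2 (71188707 to 71312656), with 15.8, 15.6, 19.5 and 20.6 CPM in cold and 27.4, 29.1 and 26 CPM in moderate replicates 1 to 3. The log2 fold change was -0.67 (SE 0.14, edgeR adjusted p = 0.0198). With 48 CPM in moderate replicate 4 and 43.9 to 48.2 CPM in warm, moderate replicates 1 to 3 lay between the cold and the warm pools. Diacylglycerol kinase 1 had the same order, with a log2 fold change of -0.47 (SE 0.13) of cold over moderate replicates 1 to 3. That change did not pass the threshold in edgeR (edgeR adjusted p = 0.0661) but did in DESeq2's Wald test (DESeq2 adjusted p = 0.0252).

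With all 4 moderate pools, edgeR called 0 of the 200 genes between cold and moderate, where 0.0142% of all genes were called in either direction. At an unadjusted p under 0.05 there were 16, each lower in cold, where 6.69% of all genes were. DESeq2's Wald test called 4, or 2%, where it called 1.42% of the genes with an adjusted p, in either direction. That contrast is partly fixed by the rule, which places moderate replicate 4 high in every gene.

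The X chromosomes held a larger share of these genes than of the expressed genes. Spiders commonly have several X chromosomes and no Y, and males carry fewer copies of each X than females. Of the 200 genes, 20 lay on X1 and 36 on X2, together 28.0% (Wilson 95% interval 22.2% to 34.6%), while 13.6% of the 12442 expressed genes lay on these chromosomes. X2 alone held 18.0% of the genes (13.3% to 23.9%) against 6.65% of the expressed genes, and X1 held 10.0% (6.57% to 14.9%) against 6.95%. Chromosome 1 held 3.5% (1.71% to 7.05%) against 8.32%. The difference between X1 and X2 came with the limit of 200 genes, since each held 60 of the 431 genes that met the conditions, or 13.9%, and chromosome 1 held 6.5% of those. Intervals cover counting error only, and neighbouring genes are not independent. Together X1 and X2 held 27.8% of the 431. If moderate replicate 4 was left out of the rule, 672 genes met the other conditions, and of the 200 with the largest ratio 108 were the same genes and 20.5% lay on X1 or X2. Median ratios were alike, at 2.12 for the 56 genes on X1 and X2 and 2.09 for the 144 others.

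**Figure D4:**
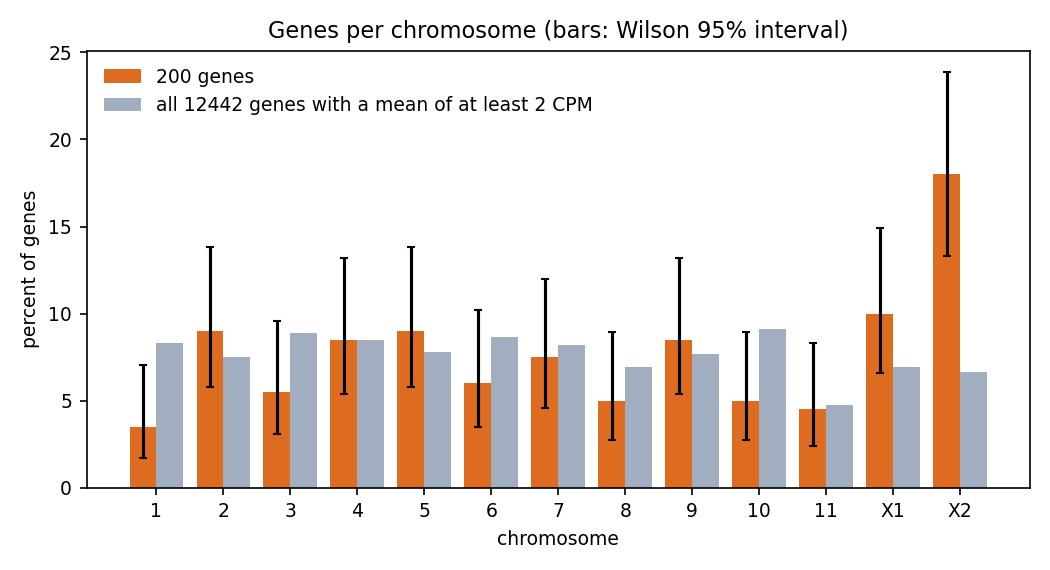
Percent of the 200 genes and of all 12442 expressed genes on each chromosome, with Wilson 95% intervals for the 200 genes. X1 and X2 together hold 28.0% of the genes and 13.6% of the expressed genes. The uneven split between X1 and X2 is not seen in the 431 genes before the limit.

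The X chromosomes were then compared with the autosomes in genes outside the 431, a comparison chosen after the positions were seen. For 1572 X-linked and 10439 autosomal genes, each gene was centred on its mean log2(CPM + 0.5) and the median of the autosomal genes was subtracted from that of the X-linked genes. The difference was -0.12, -0.04, -0.08 and -0.15 in cold, -0.03, 0.08, -0.09 and 0.04 in moderate and 0.10, 0.09, 0.04 and 0.09 in warm. The warm and cold pools did not overlap, and moderate replicates 2 and 4 lay with the warm pools. The mean was 0.18 higher in warm than in cold on the log2 scale, with an exact two-sided permutation p = 0.0286, the smallest that 4 against 4 pools allow. Adjusted over the 3 comparisons of regimes it was 0.0857 and did not pass the threshold. For warm minus moderate the difference was 0.08 and for cold minus moderate -0.10, each with an exact two-sided permutation p = 0.0857. Moderate replicate 2 was thus high for X-linked genes in general but had the lowest median CPM of the 200 genes of all pools, at 5.74 against 6.95 to 18.3. The part of this difference in the share of X-linked genes among the 200 was not tested.

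**Figure D5:**
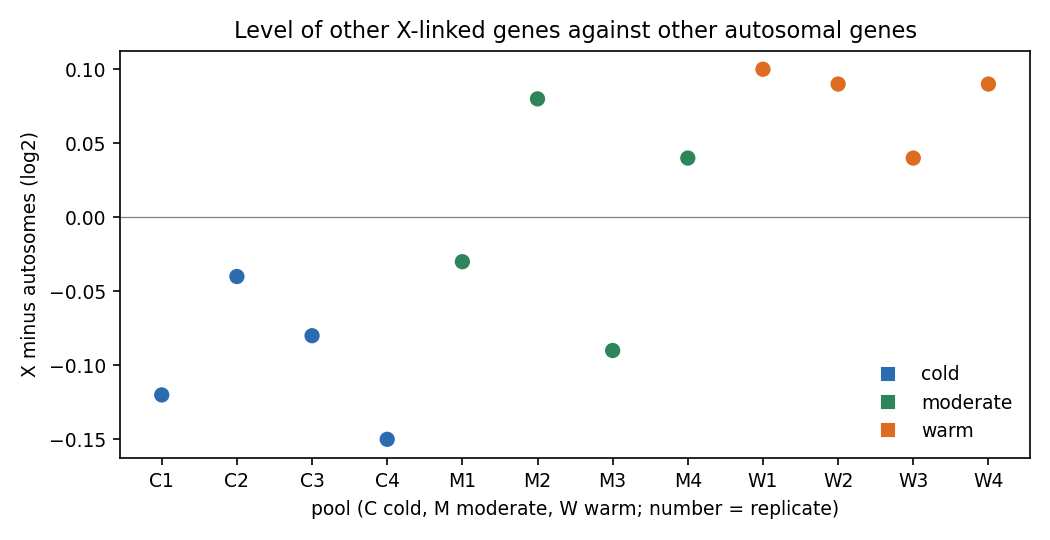
Median level of 1572 X-linked genes minus that of 10439 autosomal genes, all outside the 431, in log2 units for each of the 12 pools. The warm pools lie between 0.04 and 0.10 and the cold pools between -0.15 and -0.04, with the moderate pools on both sides of 0.

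Some of the genes were neighbours, and 6 pairs had no other annotated gene between them. Adenylosuccinate synthetase was next to LOC129983920, which ended 2853 bases before its start on chromosome 9. That gene had 20.2 to 23.5 CPM in cold, 21.0 to 22.2 in moderate replicates 1 to 3, 41.9 in moderate replicate 4 and 40.6 to 51.4 in warm. The log2 levels of this pair had a correlation of r = 0.95 over the 12 pools, which share the step that the rule selects. The other pairs were LOC129969145 with LOC129969283 and LOC129969266 with LOC129969650 on chromosome 5, LOC129959085 with LOC129959112 on X1, LOC129960855 with LOC129960866 on X2, and LOC129957497 with LOC129956687 on chromosome 11. The spans of the last pair overlapped by 158 bases, so that reads may have been shared between them, and correlations in these pairs were between 0.71 and 0.92.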

How the data were processed

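The deposited table holds unnormalized read counts per gene, made by the authors with STAR and featureCounts, and the submitters' processing notes name STAR 2.7.11a and Subread 2.0.6. All 12 sample columns were used, 0 others were present, and 2 genes without values were left out. Total counts between 10800714 and 16081111 per pool gave members counts of 31 or more in the high pools. Counting error and spread between pools were not separated, and counting error weighs most in genes of low CPM.

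CPM was computed from column sums. Counts of at least 10 by filterByExpr were scaled by TMM and tested with glmQLFit and glmQLFTest of edgeR 4.0.16 under R 4.3.3, with regime as the only factor, and called at a Benjamini-Hochberg adjusted p under 0.05. Standard errors were derived from the F statistic and are approximate. The fit was tested on simulated data. Alternatives were other scalings and filters, DESeq2 1.42.0, voom of limma 3.58.1 with sample weights, only the regimes compared, the replicate number as a block, other limits in the rule, and each pool left out in turn.

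Members, lists and tests were chosen with earlier results of these data known. Genes were named if the study names them, or if they had the 12 largest ratios, the 6 highest means, the 3 highest means of a gene type with at least 2 members, a place next to the limit (3 on each side), one of the 3 largest called changes per direction in cold against moderate without moderate replicate 4, the 2 largest or smallest coefficients of variation in warm, or the 2 largest excesses of moderate replicate 4 over warm. Neighbouring pairs and non-members from the study were named after their values were seen. All 200 genes were found in the annotation of assembly qqArgBrue1.1. Product names and sequences were not used here, so the planned lists by product name, tissue markers and promoter motifs were not computed.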

Additional observations from a re-analysis of the deposited data

Results flagged for a closer look

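Groups of 4 pools were checked for a pool far from its own group, where the gap to the nearest pool over the range of the group exceeded the 95% critical value of Dixon, which chance passes in about 1 of 20 groups. Of 123 groups, 24 passed it, and in 19 of these the pool was moderate replicate 4, which the rule itself places high. For the summary values this pool had 1.2% of counts in the 200 genes, against 0.503% to 0.566% in the other moderate pools, and a median of 18.3 CPM over them, against 5.74 to 7.3 CPM. In 17 genes its CPM was 519 for LOC129983880, 20.3 for LOC129984940, 40 for LOC129961988, 4.29 for LOC129960657, 5.1 for LOC129961620, 18.2 for LOC129965985, 5.99 for LOC129981570, 878 for LOC129980828, 456 for LOC129978751, 399 for LOC129959629, 68.3 for LOC129960154, 42.4 for LOC129960187, 14.2 for LOC129959982, 18.5 for LOC129976118, 20.2 for LOC129960247, 48 for LOC129960928 and 33 for LOC129958858.

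The other 5 were in other pools. Warm replicate 2 had 29.8 CPM of LOC129984940, against 19.7 to 21.0 CPM in the other warm pools. Warm replicate 4 had 15.9 CPM of LOC129965985, against 4.69 to 5.26 CPM. Warm replicate 2 had 17.7 CPM of LOC129976118, against 19.6 CPM in each of the others. Cold replicate 2 had 391 CPM of LOC129958474, against 315 to 322 CPM. Warm replicate 3 had a difference of X-linked minus autosomal genes of 0.04 on the log2 scale, against 0.09 to 0.10.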

How the results depend on the processing

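The median log2 fold change of the 200 genes in warm against cold was 0.97 to 1.03 under every alternative run. This shift was below the spread between replicates, and no named gene reversed in that contrast. The rule placed every warm pool above every cold pool in each of these genes. That direction was thus fixed by the choice of genes, and nothing is read from its stability. Of 697 values of named genes under alternatives, 555 kept their side of the threshold, 99 lost a call and 43 gained one. The number of genes meeting the conditions was 431, and it was 707 with a smaller minimum ratio, 127 with a ratio of at least 2, and 390 to 672 with a pool left out, the highest without moderate replicate 4. The share on X1 and X2 was 20.5% to 31.0% with a pool left out.

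Counts of calls depended on the tool and on single pools. The 67 genes called in warm against cold became 124 with DESeq2's Wald test, 196 with limma's voom, 197 with only the regimes compared, and 14 to 184 with a pool left out. Each pool left out moved this count by more than 1.5 times except moderate replicates 1 and 3. It was 16, 28, 26 and 14 without cold replicates 1 to 4, 15, 15, 28 and 30 without warm replicates 1 to 4, 114 without moderate replicate 2 and 184 without moderate replicate 4. The 7 called in warm against moderate became 2 with RLE size factors, 1 with upper-quartile normalization, 20 with no filter on low counts, 11 with 10 counts in every pool, 88 with DESeq2, 195 with voom and 0 with only the regimes compared. With a pool left out there were 0 to 195, the latter without moderate replicate 4 and 0 without any other. The 0 called in cold against moderate became 4 with DESeq2 and 6 with voom, and 0 to 11 with a pool left out. Without moderate replicate 4, the 11 called in cold against moderate became 34 with DESeq2 and 22 with voom, and 2 to 13 with a further pool left out. The number above 0 in that contrast was 146 to 157 of 200, and 139 of 183 genes with 10 counts in every pool. The following counts over all genes are in either direction. Of genes with an adjusted p, DESeq2 called 12.1% in warm against cold, 15.6% in warm against moderate and 1.42% in cold against moderate. In the last contrast without moderate replicate 4 it called 9.85%. In the same contrasts voom called 3727, 5096 and 804 of 14057 genes and 990 of 14181. With only warm and cold in the fit, 3272 of 13827 genes were called. For the other alternatives the share called over all genes is not given here. A change in those counts therefore cannot be told apart from a change over all genes. The causes were not tested.

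Replicate numbers did not pair the pools, since same-numbered pools of 2 regimes deviated together with correlations of only -0.07 to 0.12. With the replicate number as a block, 55 genes were called in warm against cold, 0 in warm against moderate, 0 in cold against moderate, and 3 in cold against moderate without moderate replicate 4.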
